A study of Homo sapiens with 4 samples.

Results

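Genes for the neuronal subunits of the BAF chromatin remodelling complex, and for the subunits they replace, were examined for NRSF/REST binding sites in human adrenocortical cells. The set was defined by gene name and function, with earlier results of these data known, and comprised 8 of the 20163 protein-coding genes of GENCODE release 44 on hg19. ACTL6B, DPF1, DPF3 and SS18L1 are the 4 neuronal forms. ACTL6A, PHF10, DPF2 and SS18 are the 4 progenitor or ubiquitous forms. A site was assigned to a gene when it overlapped the gene or the 10 kb on either side.

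The binding sites came from ChIP-seq with an anti NRSF/REST antibody in H295R/TR SF-1 cells. These cells are a subclone of H295R, a line from an adrenocortical tumour, in which doxycycline induces extra SF-1, the nuclear receptor that governs steroid-producing cells. Cells left untreated (basal SF-1 dosage) gave 1 library. Cells given doxycycline for 3 days (increased SF-1 dosage) gave the other. All cells carried the inducible SF-1 construct and their own SF-1. The 2 input DNA libraries named in the labels were not analysed here. The deposited basal list holds 5323 sites and the increased list 5059, with a median width of 299 bp in each. Depth and read counts are unknown, no test between dosages was possible, and a difference in depth and a difference in binding cannot be told apart where a site is in a single list. The lists hold no measure from which the identity of the cells could be checked.

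The BAF (SWI/SNF) complex uses ATP to move nucleosomes. When neural progenitors leave the cell cycle, several subunits are exchanged: the actin-related protein ACTL6A (BAF53a) gives way to ACTL6B (BAF53b), the PHD finger protein PHF10 (BAF45a) to DPF1 and DPF3 (BAF45b and BAF45c), and SS18 to SS18L1 (CREST). DPF2 (BAF45d) is a PHD finger subunit of broadly expressed complexes. NRSF/REST is a zinc finger repressor that keeps neuronal genes silent outside the nervous system by binding a bipartite element. The microRNAs miR-9* and miR-124, whose genes NRSF/REST is known to repress, act on the ACTL6A transcript in neurons.

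Sequences from the sites of these genes and from DPF3 introns are given first, in the direction of the consensus CTGTCCNNGGTGCTG. The consensus has a left part of 6 bases, 2 free bases and a right part of 7 bases. Both strands were searched. Capitals mark bases equal to the parts, coordinates are those of hg19 with the strand read, and positions of substitutions count from 1 at the consensus start. The first 3 lines show, for each of the 3 genes with a basal site, the closest arrangement of the parts that the search found there. At spacings other than that of the consensus, only parts with up to 1 mismatch each were searched. In these arrangements the parts were complete at ACTL6B, with 9 bases between them, and incomplete at the other 2 genes. The basal DPF2 site also held 2 exact left parts and the SS18L1 site 1, with no exact right part in either.
ACTL6B, 5′ UTR, chr7:100254019-100254046, minus strand: ggagCTGTCCggccgcctcGGTGCTGat
DPF2, 3′ UTR, chr11:65121505-65121525, minus strand: acccCcGTCCtaccgGCTGac
SS18L1, upstream, chr20:60713472-60713493, minus strand: gcctgTGTCCacaGcTGCTGtc

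The next 5 lines give the matches with 1 mismatch in introns of DPF3, which were the closest matches at the consensus spacing in the windows of all 8 genes. None of them lay in a site.
DPF3 with C5G, chr14:73331336-73331356, plus strand: ggccCTGTgCatGGTGCTGcc
DPF3 with C1A, chr14:73246023-73246043, minus strand: tgcaaTGTCCcaGGTGCTGgg
DPF3 with C5T, chr14:73206526-73206546, plus strand: gactCTGTtCtaGGTGCTGgg
DPF3 with C1T, chr14:73189987-73190007, minus strand: tgcctTGTCCctGGTGCTGtg
DPF3 with C5A, chr14:73105952-73105972, plus strand: ggaaCTGTaCaaGGTGCTGaa

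Of the 8 genes, 3 had a site at the basal dosage, where 13.9% of all protein-coding genes had one. At the increased dosage 2 of 8 genes had a site, against 13.6% of all protein-coding genes. ACTL6B and DPF2 were the 2 with a site at both dosages, against 10.5% of all protein-coding genes, and SS18L1 had a site at the basal dosage alone. With 8 genes, 1 gene more or less moves the share by a large step, so these counts are read as a description. By form, 2 of 4 neuronal genes and 1 of 4 progenitor or ubiquitous genes had a site at the basal dosage, and 1 of 4 of each form at the increased dosage. The genes had 3 sites in each list, of which 2 overlapped a site of the other list, where 64.5% of all basal and 67.9% of all increased sites did. None of them held the consensus with up to 2 mismatches, which 40.7% of all basal and 42.1% of all increased sites held. No site was assigned to DPF1, DPF3, ACTL6A, PHF10 or SS18 at either dosage.

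**Figure D1:**
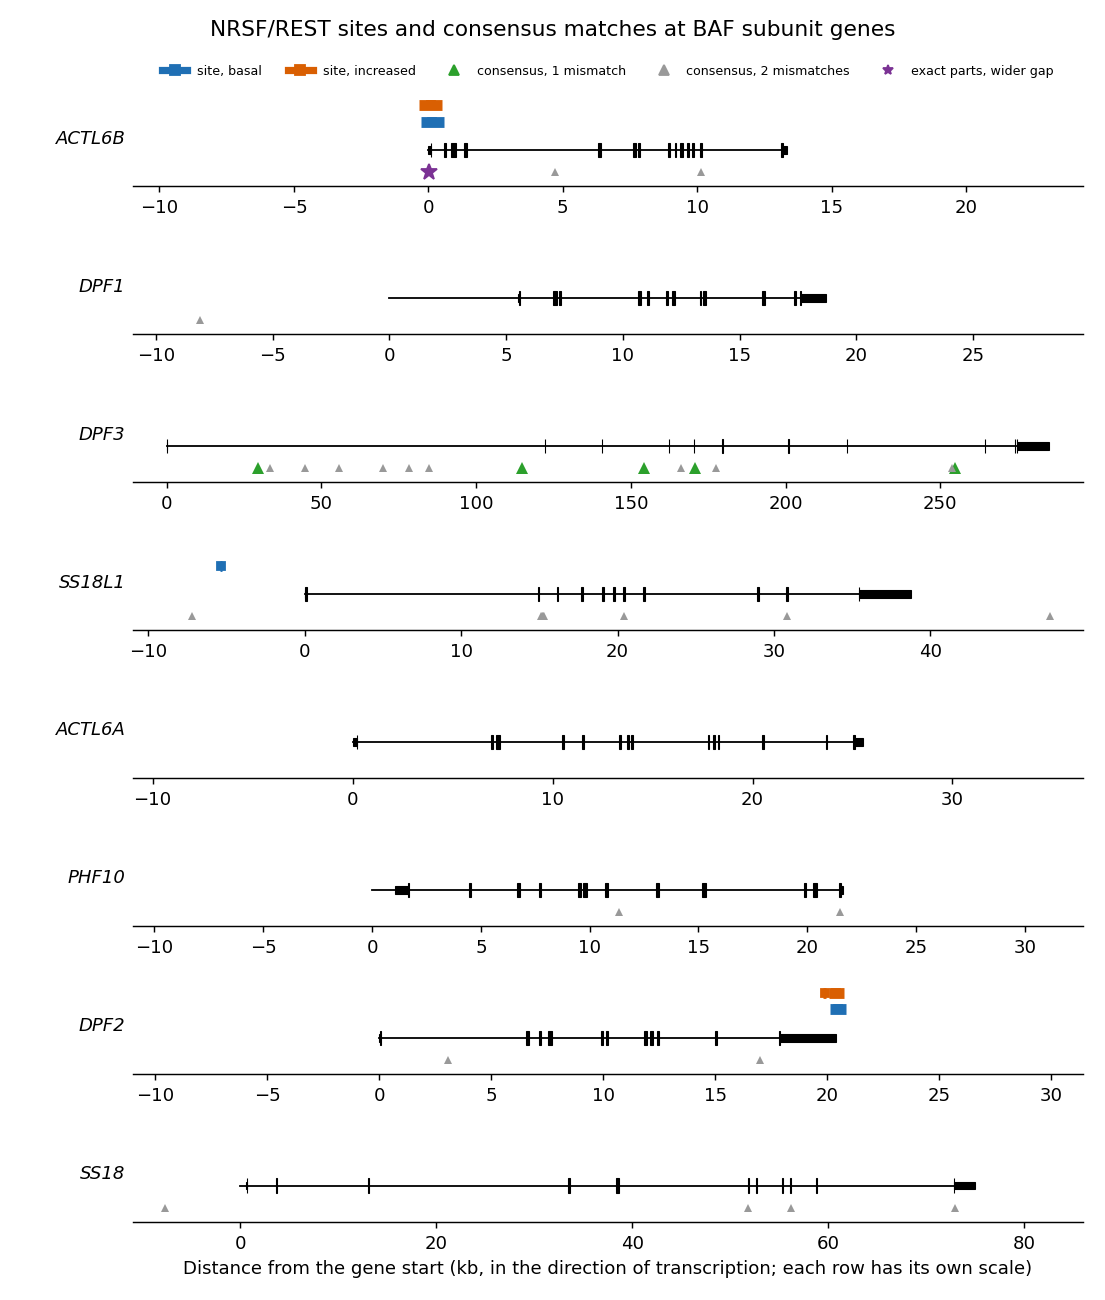
Each row is 1 gene drawn from its start in kb, with 10 kb on either side, on its own scale; tall boxes are coding exons and low boxes untranslated exons of the canonical transcript. Blue and orange bars are sites at the basal and increased dosage, green and grey triangles are consensus matches with 1 and 2 mismatches, and the star is the pair of exact parts at ACTL6B; bars are seen at ACTL6B, DPF2 and SS18L1, and no triangle lies in a site.

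Longer genes offer more room for a site. Among protein-coding genes of 10 to 50 kb, the class of ACTL6B, DPF1, SS18L1, ACTL6A, PHF10 and DPF2, 10% had a basal site and 9.64% had a site at the increased dosage. For SS18, in the class of 50 to 100 kb, the shares were 13.7% and 13.5%. DPF3 spans 285068 bp, and in its class of 100 to 300 kb the shares were 24.6% and 24.7%.

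ACTL6B, the neuronal actin-related subunit, carried the widest member site, and it lay across the start of the gene at both dosages. The gene occupies chr7:100240720-100254071 on the minus strand. The basal site spanned chr7:100253501-100254349 and the increased site chr7:100253551-100254399. Both were 849 bp wide and overlapped by 799 bp. The basal site reached from 278 bp before the gene start to 570 bp after it, and the increased site from 328 bp before to 520 bp after. Of the basal site, 278 bp were upstream, 94 bp were in the 5′ UTR, 27 bp in coding exons and 450 bp in introns. The site thus took in the whole 5′ UTR of the canonical transcript.

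The ACTL6B site also stood early in both lists. Its order number was 400 of 5323 without and 374 of 5059 with doxycycline, which is 7.51% and 7.39% of the way down. The files do not say what the order stands for. Wider sites tended to come earlier, but the 87 basal sites of 849 bp had order numbers from 26 to 1989 and the 86 increased ones from 27 to 2458. Wider sites made up 7.27% of the basal list and 8.05% of the increased list. All of these sites of 849 bp overlapped a site of the other dosage. A gene start inside a site was uncommon: 0.937% of protein-coding genes had one in the basal list and 0.868% in the increased list. Among the 180 basal sites that covered such a start, 56 were wider than the site at ACTL6B.

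**Figure D2:**
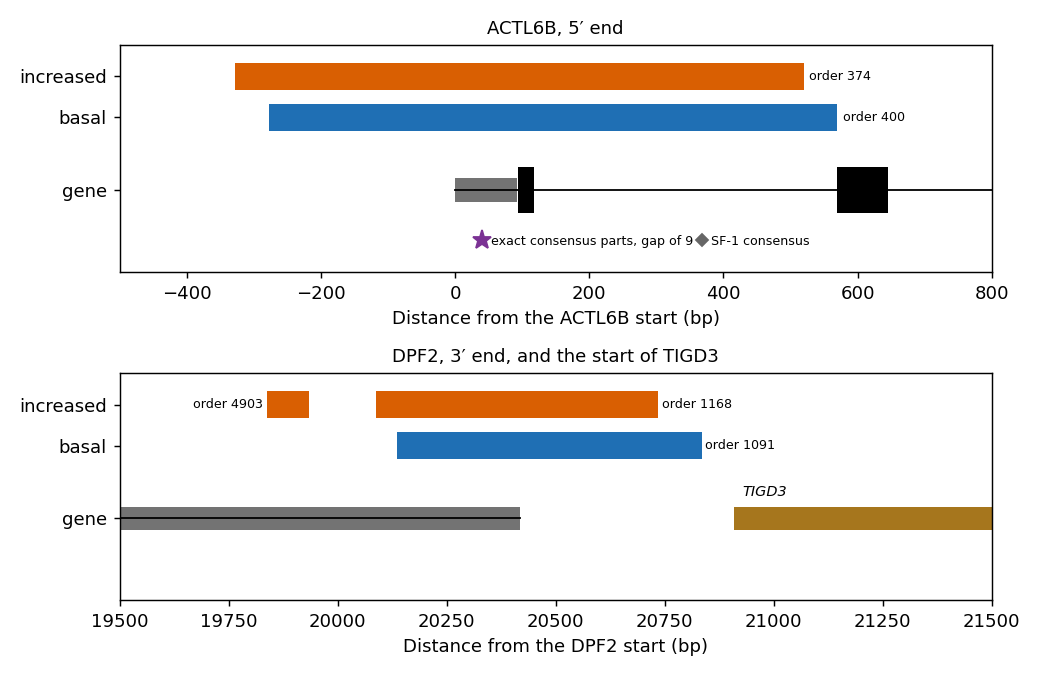
The upper panel shows the ACTL6B start and the lower panel the DPF2 end, in bp from each gene's start; bars are sites with their order numbers, grey boxes UTRs, black boxes coding exons and the brown box TIGD3. The ACTL6B sites of both dosages cover the start and the exact consensus parts 39.5 bp into the gene, and the wide DPF2 sites end 73 and 173 bp short of TIGD3.

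At the consensus spacing, the ACTL6B site held no match with up to 2 mismatches, although 80.5% of the basal and 76.7% of the increased sites of the same width did. The closest had 3 mismatches (C1G, T2A, G12C) and lay in an intron. Both consensus parts were nevertheless present without mismatch, in consensus order on 1 strand, with 9 bases between them in place of 2. The middle of this pair lay 39.5 bp into the gene, in the 5′ UTR, 106 bp from the midpoint of the basal site and 56.5 bp from that of the increased site. The surrounding 51 bp occur once in the genome. The search at other spacings was added after the data had been seen.

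The share of sites with such a pair differed between classes of sites, which also differed in width. Exact parts at any spacing of 0 to 20 bases other than 2 were found in 3.95% of basal and 4.09% of increased sites. It was found in 26 of the 180 basal sites that covered a protein-coding gene start (14.4%, median width 699 bp) and in 3.58% of the other basal sites (median width 299 bp). Among basal sites without the consensus, it was found in 4.91% (median width 199 bp), and in 20 of the 96 that covered a gene start (20.8%, median width 549 bp). At the increased dosage 5.29% of the sites without the consensus held it, and 20 of the 88 over a gene start (22.7%). The part of width in this difference was not tested. Over the whole genome, exact parts 9 bases apart occurred 174 times, and 37 of these (21.3%) lay in a basal site and 37 in an increased site. The share was 34.1% at 8 bases, 19.3% at 10 bases and 74.5% at the consensus spacing of 2 in the basal list. At spacings of 3 to 6 bases it was at most 0.758%. With 1 base between the parts it was 4.74% (9 of 190), and with 0 bases 14.8% (4 of 27). All 37 basal sites with the 9-base spacing overlapped a site of the other dosage, and 5 of them covered a protein-coding gene start.

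**Figure D3:**
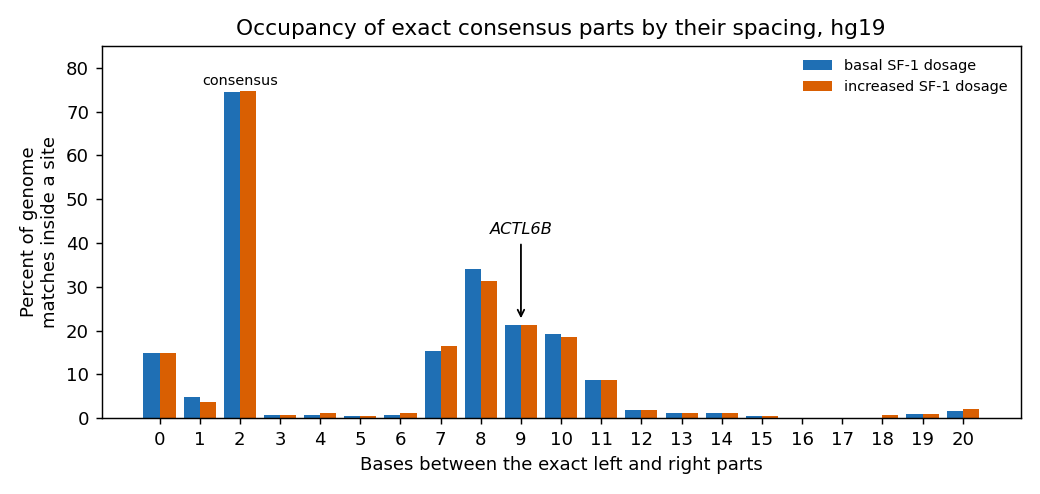
Bars give the percentage of all hg19 occurrences of the exact left and right parts that lie inside a site, by the number of bases between the parts, at each dosage. Occupancy peaks at the consensus spacing of 2 bases and rises again from 7 to 11 bases, the range that includes the ACTL6B arrangement with 9.

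The ACTL6B site was the only member site of the basal list with a match to the SF-1 consensus CAAGGHCA (H is A, C or T). This match is shown because SF-1 dosage was the variable of the study, with the element in capitals.
ACTL6B, intron, chr7:100253696-100253711, minus strand: tgagCAAGGCCAttgg

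It lay 367.5 bp into the gene, in an intron, and inside the site at both dosages. An SF-1 match was found in 11.4% of all basal sites, and in 22.4% of those 700 to 1000 bp wide. At the increased dosage the shares were 11.5% and 20.8%. The match is a description of the sequence, and SF-1 binding there was not analysed here.

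At DPF2, the broadly expressed PHD finger subunit, the site lay at the opposite end of the gene. The gene occupies chr11:65101314-65121733 on the plus strand. The basal site spanned chr11:65121451-65122149 (699 bp, order number 1091) and the increased site chr11:65121401-65122049 (649 bp, order number 1168). They overlapped by 599 bp. Of the basal site, 283 bp covered the end of the 3′ UTR and 416 bp lay downstream of the gene. The nearest annotated protein-coding start was not that of DPF2, which was 20486 bp from the basal midpoint, but that of TIGD3, 422 bp from it. An antisense lncRNA gene, ENSG00000289231, was also overlapped, and its start at chr11:65122061 lay inside the basal site, 88 bp from the edge. The increased site overlapped the same gene without reaching its start. The lists do not say which of these genes the site belongs to.

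At the increased dosage a second site was called at DPF2, at chr11:65121151-65121249, wholly in the 3′ UTR and within the lncRNA gene. It was 99 bp wide, the smallest width in the lists, and had order number 4903 of 5059. No basal site overlapped it. Of the 671 increased sites of this width, 11.2% overlapped a basal site, so a lone narrow site was the usual case. None of the DPF2 sites held the consensus with up to 2 mismatches, and the best match in the site of 99 bp had 6. The best match in the basal site had 4 mismatches (T2C, G9C, G10C, T11G), and no pair of parts with up to 1 mismatch in each was found at another spacing. Among basal sites of 699 bp, 78.3% held the consensus.

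The site assigned to SS18L1, the neuronal counterpart of SS18, was narrow and was called at the basal dosage only. It spanned chr20:60713401-60713549 (149 bp, order number 4178 of 5323) and ended 5276 bp before the gene, which occupies chr20:60718825-60757570 on the plus strand. It lay wholly in an intron of PSMA7, a proteasome subunit gene whose start was also the nearest. Of the 731 basal sites of this width, 14% overlapped an increased site and 7.66% held the consensus. Its best match at the consensus spacing had 5 mismatches. With 3 bases between them, the parts were present with 1 mismatch each (C1G in the left part and G11C in the right), an arrangement of a kind found in 28.8% of all basal sites, spacings of 0 to 20 bases together. The nearest increased site was 14126 bp from the gene.

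**Figure D4:**
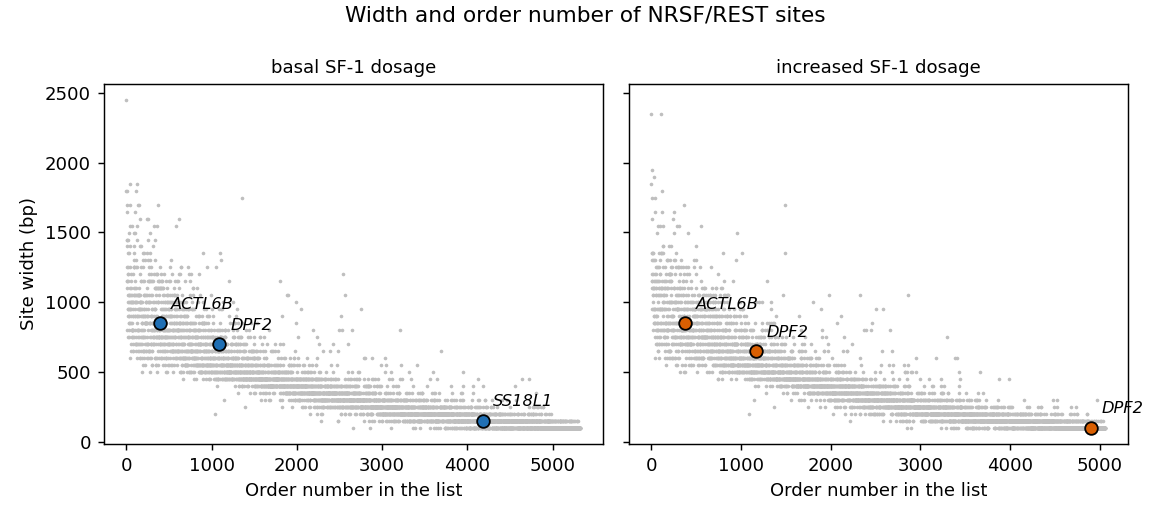
Each grey point is 1 site of the basal (left) or increased (right) list, by its order number and its width in bp, and coloured points are sites at member genes. ACTL6B and the wide DPF2 site are among the wide, early sites of both lists, while the SS18L1 site of 149 bp and the second DPF2 site of 99 bp are among the narrow, late ones.

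The other 5 genes differed widely in how far the nearest site was. DPF1 (chr19:38701646-38720354) had a basal site of 149 bp 33197 bp upstream and none nearer than 203747 bp at the increased dosage. For DPF3 (chr14:73075742-73360809) the distances were 102892 bp and 1055892 bp. ACTL6A (chr3:179280674-179306195), the subunit that ACTL6B replaces, was 448106 bp from the same place in both lists, where sites of 749 and 699 bp were called. SS18 (chr18:23596217-23671181) was 631070 and 631120 bp away. PHF10 (chr6:170103998-170125662) was farthest, at 2874449 and 1866349 bp.

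The windows of the 8 genes held 34 consensus matches with up to 2 mismatches, of which 29 had 2 and 5 had 1. None of the 34 lay in a site at either dosage, and none was exact. Over the genome, 74.5% of the 816 exact matches lay in a basal site (95% Wilson interval 71.4 to 77.4, counting error only). The share was 12% of the 8057 matches with 1 mismatch and 0.887% of the 87405 with 2. At the increased dosage the shares were 74.8%, 11.9% and 0.850%. ACTL6A had no match at all. DPF1 had 1, ACTL6B, PHF10 and DPF2 had 2 each, SS18 had 4, SS18L1 had 9 and DPF3 had 14.

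DPF3, a PHD finger subunit that recognises modified histones, held all 5 matches with 1 mismatch, spread from 29462 to 254846 bp after its start. How often such a match was in a site differed with the base replaced, and other differences between these sets of matches were not tested. With C5G, the substitution of the first DPF3 match, 1 of 1000 genomic matches lay in a basal site (0.100%). With C5A it was 1 of 230 (0.435%) and with C1A 3 of 133 (2.26%). C5T was in a site in 45 of 601 (7.49%, 95% Wilson interval 5.64 to 9.87). C1T was the most often occupied of these, in 25 of 146 (17.1%, 11.9 to 24.1). For comparison G12A, which no DPF3 match had, was in a site in 84 of 151 (55.6%, 47.7 to 63.3). The increased list gave 0.100%, 0.435%, 2.26%, 7.15% and 17.1% for the same 5 substitutions. The 51 bp around each of the 5 DPF3 matches occurs once in the genome.

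**Figure D5:**
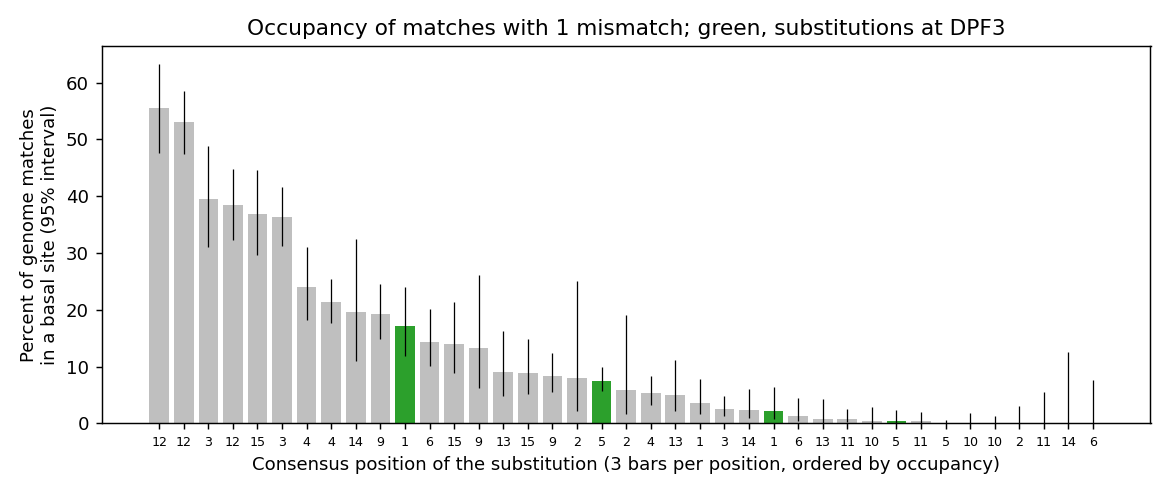
Each bar is 1 of the 39 possible single substitutions, labelled by its consensus position, and gives the percentage of genomic matches with that substitution alone that lie in a basal site; lines are 95% Wilson intervals. The 5 substitutions present at DPF3 are green and range from 0.100% to 17.1%, against 55.6% for the most often occupied.

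In SS18L1, 5 of the 9 matches belonged to a row of repeats in an intron, between chr20:60733920 and chr20:60734109. Neighbouring matches were 34 bp apart, except for a step of 67 bp. The first is shown with the one that differs from it.
SS18L1 with T4G and G9C, chr20:60733920-60733940, minus strand: atatCTGgCCtccGTGCTGgg
SS18L1 with T4A and G9C, chr20:60733987-60734007, minus strand: atatCTGaCCtccGTGCTGgg

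No site was called over these repeats at either dosage. Whether the sequence around them occurs once in the genome was not checked.

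The remaining BAF subunit genes were counted in the same way, from a list of 23. A site was found at 5 of them at the basal dosage (21.7%), at 4 at the increased dosage (17.4%) and at 3 at both (13%), against the 13.9%, 13.6% and 10.5% of all protein-coding genes given above. This order depended on the rule used. With 23 genes, a change of 1 gene shifts the share, so these counts too are read as a description. At the basal dosage, 1 of the 23 had a site in the gene alone or within 2 kb, a share below the 9.91% and 11.1% of all protein-coding genes under the same rules. At the increased dosage those rules gave 2 of the 23, again below the share of all genes (9.74% and 10.8%). Other rules did not turn the order. With 50 kb in either list, and with the widest 50% in the basal list, the shares were nearly equal. None of these comparisons was matched for gene length. Keeping the widest 50% of sites left 2 of the 23 in the basal list, beside 8.35% of all genes. In the increased list it left 3, beside 7.90%. A distance of 50 kb gave 6 of the 23 in either list, beside 25.9% (basal) and 25.3% (increased) of all genes. Under the main rule, the 3 genes with a site at both dosages were ARID2, SMARCD1 and SMARCE1. ARID2, a DNA-binding subunit of the PBAF form, had an intronic site of 449 bp at the basal and 399 bp at the increased dosage, 64886 bp after the gene start at its basal midpoint, with a consensus match of 1 mismatch. SMARCD1 (BAF60a) had a site of 499 and 399 bp whose basal midpoint lay 5233 bp before its start, inside ASIC1, a gene for an acid-sensing ion channel that was named after its position was seen. SMARCE1 (BAF57) had a site of 249 and 299 bp downstream of the gene. The sites at SMARCD1 and SMARCE1 held no match with up to 2 mismatches.

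Among 19 genes of other remodelling complexes, 3 had a site in the basal list (15.8%) and 4 in the increased list (21.1%). In both lists it was 2, CHD5 and CHD7 (10.5%). For all protein-coding genes the shares were 13.9%, 13.6% and 10.5%. These counts too are read as a description, and gene length was again not matched. Basal midpoints lay 18581 bp (CHD5), 49861 bp (CHD1) and 157326 bp (CHD7) after the gene start. Among genes of 100 to 300 kb, 24.6% had a basal and 24.7% an increased site. Keeping the widest 50% of sites left 1 of the 19 in each list, beside 8.35% (basal) and 7.90% (increased) of all genes. CHD5, a remodeller enriched in neurons, had an intronic site of 799 bp at the basal and 899 bp at the increased dosage, and it held the exact consensus. CHD7 had a site of 249 and 99 bp across an exon and intron. At both dosages it held the 2 consensus parts without mismatch at a spacing other than that of the consensus, as the ACTL6B site did. The spacing at CHD7 is not given here and may differ from that at ACTL6B. The widest sites of the genes counted here were at microRNA genes. All 4 of the MIR9 and MIR124 genes matched in the annotation, MIR9-1, MIR9-3, MIR124-2 and MIR124-3, had a site within 10 kb at both dosages, against 3.28% of all 3049 microRNA genes. The share of microRNA genes with a basal site was 4.79%, and with an increased site 4.56%. MIR9-3 had sites of up to 1699 bp at the basal and 1749 bp at the increased dosage. MIR9-1 had 1 site of 1449 bp at the basal dosage and 3 sites of 749, 249 and 299 bp in its place at the increased dosage, of which 2 overlapped the basal site.

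The matches below are a selection of those that have the consensus spacing and lay in a site at both dosages, shown beside the ACTL6B arrangement.
CHD5, intron, chr1:6221874-6221894, minus strand: gcctCTGTCCgtGGTGCTGaa
MIR9-1, upstream, chr1:156384452-156384472, plus strand: ggagCTGTCCgtGGTGCTGga
MIR124-3, downstream, chr20:61810339-61810359, plus strand: ggcgCTGTCCgcGGTGCTGgc
ARID2 with G3A, intron, chr12:46188394-46188414, minus strand: ggagCTaTCCctGGTGCTGca

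CHD5, MIR9-1 and MIR124-3 thus had both parts without mismatch 2 bases apart, where ACTL6B had the same parts 9 bases apart. A site at MIR124-2 also held an exact match at both dosages. A site at MIR9-3 and another at MIR124-3 held matches with 1 mismatch at both dosages.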

How the data were processed

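NRSF/REST ChIP-seq was analysed in 1 library per SF-1 dosage. Reads were aligned to hg19 by the authors, using ELAND and CASAVA 1.6 (processing notes of the submitters), and sites were called. The peak caller for these lists is not given in the sources used here. The deposited lists give chromosome, start, end, an order number and a score, which is 1000 for every site and ranks nothing. Boundaries fall on 50-bp steps.

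Member genes and lists were chosen with earlier results of these data known. Starts were converted to a count from 1, genes were matched by symbol to GENCODE release 44 on hg19, and overlap of at least 1 bp counted as shared. The consensus was searched in hg19 with up to 2 mismatches over its 13 fixed bases, and its parts at spacings of 0 to 20 bases. All 8 members were named with every site; genes of the other lists were named if they had a site at both dosages. MIR9-2 and MIR124-1 were not matched by symbol. Searches used pysam 0.24.0 with numpy 2.4.6 and scipy 1.17.1 in Python 3.11.15 and were tested on simulated data. Depth is unknown, and intervals cover counting error only.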

Additional observations from a re-analysis of the deposited data

How the results depend on the processing

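No paired analysis was possible because each dosage had 1 library and no result came from a test. The number of member genes with a site stayed within 1.5 times its main value under all alternatives tried, which were the gene alone, 2 kb, 50 kb, site midpoints, the widest 50% of sites, the first 50% by order number, shared sites and the longest protein-coding transcript. With main counts of 3 and 2, a change of 1 gene is within that limit. The basal count was 2 with the gene alone, 2 kb, the widest 50%, the first 50% and shared sites. It was 4 with 50 kb, where the increased count was 3. ACTL6B and DPF2 are the 2 genes left when sites are restricted to the gene. With 50 kb, the number of member sites rose to 7 at the basal and 5 at the increased dosage. With up to 3 mismatches 1 member site held the consensus at each dosage, as it did with exact parts at another spacing (added after the data were seen), against 0. The share of all protein-coding genes with a site was 9.91% and 9.74% (basal and increased) for the gene alone, 11.1% and 10.8% with 2 kb, 25.9% and 25.3% with 50 kb, 8.48% and 8.05% over all GENCODE genes, and 8.35% and 7.90% with the widest 50%. For the 23 other BAF genes, the gene alone and 2 kb each gave 1 and 2, and the widest 50% gave 2 at the basal dosage. For the 19 other remodellers, 50 kb gave 5 at the basal dosage and the widest 50% gave 1 at each. The causes of these shifts were not tested beyond the narrower or wider rule itself. In all, 52 of the alternative values stayed within the limit set, which was 1.5 times the main value for counts and its 95% Wilson interval for percentages, and 24 moved. Without replicates or depth, presence in a single list has no error estimate.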
